A study of Mus musculus with 6 samples.

Results

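Enzymes that build triglycerides, phospholipids and cholesterol esters were compared between microglia that hold few lipid droplets and microglia that hold many. The set was given by name as Dgat1, Dgat2, Soat1, Lpin1, Lpin2, Agpat2, Agpat3, Lpcat1 and Lpcat2. All 9 genes were found among the 14148 genes of the normalized count table, and all 9 passed the filter on low values. The cells came from hippocampi of male C57BL/6 mice aged 18 months, with the hippocampi of 3 mice pooled per sample. About 10000 live CD11b+CD45lo cells, a usual gate for microglia, were sorted per sample by BODIPY, a dye for neutral lipid, into a BODIPY-low (lipid-droplet low) and a BODIPY-high (lipid-droplet rich) fraction. Each fraction was sequenced in 3 libraries, and the groups shared age, sex, strain and tissue. The groups are sorted fractions rather than treatments, and nothing in the labels says whether same-numbered BODIPY-low and BODIPY-high samples came from the same pool of mice.

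Triglyceride is built by adding fatty acids stepwise to glycerol-3-phosphate. GPAT enzymes add the first acyl chain, AGPAT enzymes turn the resulting lysophosphatidate into phosphatidate, lipins remove its phosphate to give diacylglycerol, and DGAT enzymes add the last chain. Phosphatidate and diacylglycerol also feed phospholipid synthesis. LPCAT enzymes put acyl chains back on lysophosphatidylcholine, a reaction that remodels membranes and supplies phosphatidylcholine, the main phospholipid of the lipid droplet surface. SOAT1 esterifies cholesterol, which can then be stored in droplets beside triglyceride.

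Recovered reads per library ran from 15895576 to 38489448. The microglial markers P2ry12, Tmem119, Cx3cr1, Csf1r, Sall1, Aif1 and Itgam were all detected. Their summed level ran from 1031681 to 1214684 normalized counts in BODIPY-low and from 939704 to 1150419 in BODIPY-high libraries, and none passed the test between groups. Markers of other cells were present at far lower levels, and some moved with the groups. Of 8 neutrophil markers, 7 were measured and 6 tested, and all 6 fell, with sums of 1222 to 4563 normalized counts in BODIPY-low libraries and 0 reads for all 7 in BODIPY-high libraries. Of 8 choroid plexus markers, 6 were tested and 3 rose, Ttr, Kl and Enpp2, with sums of 369 to 1806 in BODIPY-low and 1721 to 5607 in BODIPY-high libraries. Summed oligodendrocyte markers ran from 4648 to 4896 in BODIPY-low and 5453 to 6013 in BODIPY-high libraries, and none of the 5 tested passed singly. Summed astrocyte markers ran from 6466 to 7795 and from 7949 to 8855, with neither of the 2 tested markers past the threshold. Aqp4 had 0 reads in all BODIPY-high libraries, but it did not pass the filter on low values and was not tested. Border-associated macrophage markers summed to 254 to 557 and 167 to 416, endothelial markers to 1387 to 1811 and 1668 to 2106, and neuronal markers to 12.6 to 28.1 and 25.8 to 26.7 normalized counts, with none of 7, 4 and 1 tested markers past the threshold. The part of such cells in the levels below was not tested. In sorted bulk samples, fewer cells of a type and less RNA per cell cannot be told apart.

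None of the 9 enzymes passed the test between BODIPY-high and BODIPY-low microglia. In limma across all 11624 tested genes, 0 of 9 had an adjusted p under 0.05, against 3.36% of all tested genes. Among all tested genes 178 were higher and 212 lower in the droplet-rich fraction, a split that was 118 higher and 233 lower with equal library totals, and 460 higher and 191 lower after a correction for exon length. Of the enzymes, 2 had an unadjusted p under 0.05, Agpat3 and Soat1, where 19.8% of all tested genes did. On the recovered reads, edgeR called 0 of 9, against 3.24% of all tested genes, and DESeq2 called 0 of 9, against 6.27%. The length correction called 1 of 9, Agpat3, against 5.60%. With the replicate number as a block, limma called 2 of 9, Soat1 and Agpat3, against 9.38%. The labels do not say whether these numbers pair the samples. Log2 changes lay between -0.15 (Dgat1) and 0.23 (Agpat3). They were above 0 for 7 enzymes, where 48.7% of all tested genes were, and below 0 for Dgat1 and Agpat2. Their median was 0.09, against -0.01 over all tested genes. The enzymes' median was 0.16 without BODIPY-low replicate 1, 0.038 without BODIPY-high replicate 1, 0.16 after the length correction, 0.043 with equal library totals and 0.033 with quantile normalization. In the same order, the median over all tested genes was -0.0024, -0.0018, 0.042, -0.048 and 0.011. The median size of a change, regardless of direction, was 0.13 for the enzymes and 0.14 for all tested genes.

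**Figure D1:**
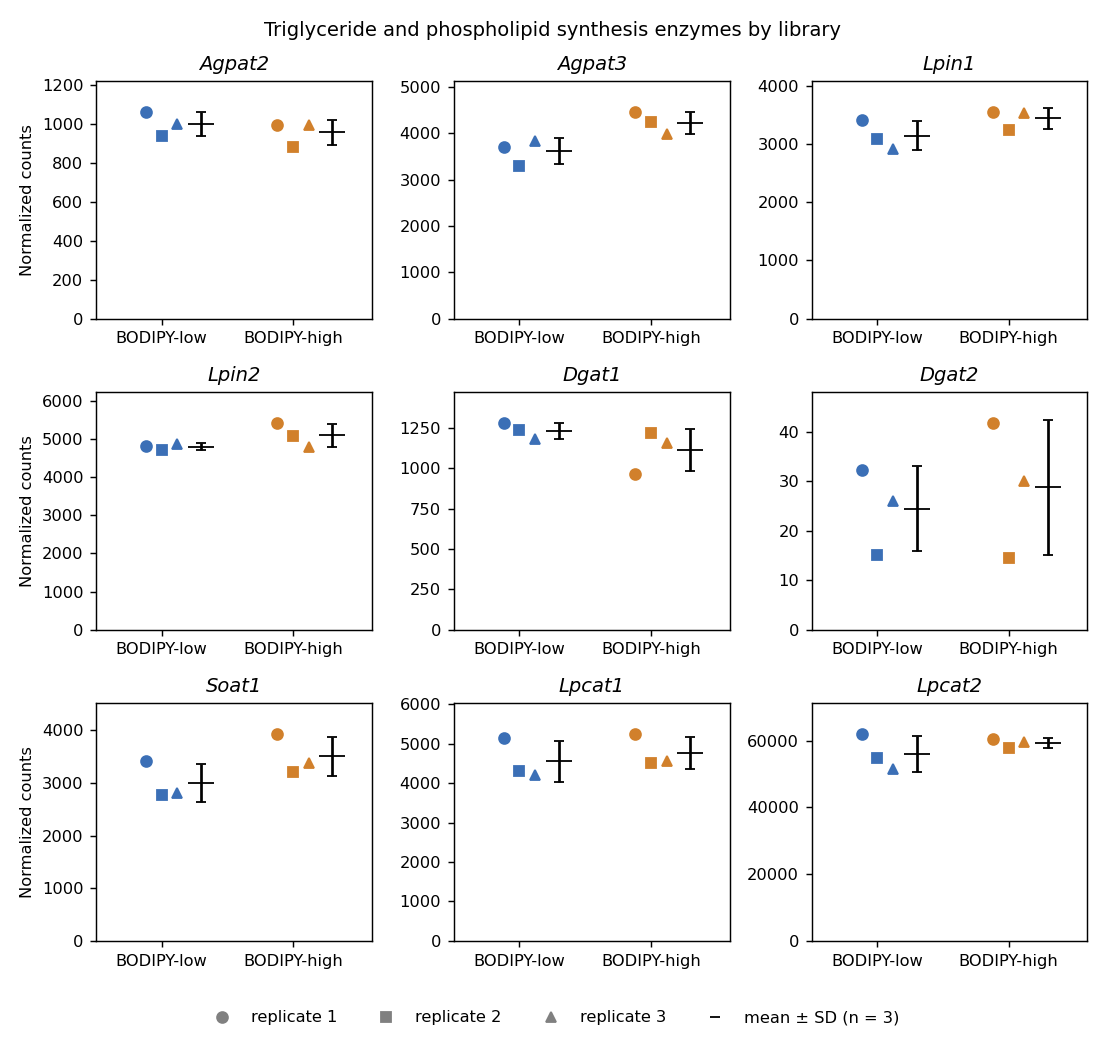
Normalized counts (vertical axes, from 0) of the 9 enzymes in the 3 BODIPY-low (blue) and 3 BODIPY-high (orange) libraries, with the marker shape giving the replicate number and the black bar the mean ± SD. The groups overlap in every panel except Agpat3, where BODIPY-high libraries lie between 3975 and 4459 and BODIPY-low libraries between 3300 and 3838.

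Agpat3 had the smallest p of the set and, with Soat1, the largest log2 change. It encodes an acyltransferase of lysophosphatidate in the endoplasmic reticulum and Golgi (mm9 chromosome 10, 77731923 to 77815234, minus strand). Agpat3 had 3699, 3300 and 3838 normalized counts in BODIPY-low replicates 1, 2 and 3. It had 4459, 4245 and 3975 in BODIPY-high replicates 1, 2 and 3. Every BODIPY-high library thus lay above every BODIPY-low library, which held for no other enzyme of the set. Values lay wholly above in BODIPY-high for 12.7% of all tested genes, and were separate in either direction for 24.3%. The means were 3612 ± 279 and 4227 ± 242 (SD, n = 3 each). The log2 change was 0.23 ± 0.08 (SE) on the log2(normalized count + 1) scale used for all changes here, with a limma adjusted p of 0.113. The 95% interval, not adjusted for the number of genes, ran from 1.05-fold to 1.31-fold. The log2 change after the length correction was 0.26, with a limma adjusted p of 0.0484 where 5.60% of all tested genes were called, and that of Soat1 was then the larger at 0.27. The log2 change of Agpat3 lay between 0.16 and 0.27 with 1 library left out, where adjusted p ran from 0.121 to 0.372. With the replicate number as a block its limma adjusted p was 0.0396, where 9.38% of all tested genes were called.

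Agpat2, the paralog whose loss in humans causes a congenital absence of body fat, lay on the other side of 0 (mm9 chromosome 2, 26448577 to 26459937, minus strand). Its levels were 1060, 936 and 999 normalized counts in BODIPY-low and 991, 882 and 992 in BODIPY-high replicates 1, 2 and 3. The groups overlapped, and the log2 change was -0.06 ± 0.09 with an adjusted p of 0.750 (limma). With 1 library left out it lay between -0.11 and -0.0085. Its annotated exons share 64 bases with Egfl7 on the opposite strand, and the SmartSeq v4 and Nextera XT kits that the labels name do not mark strand. Egfl7 had between 2 and 10 reads per library, against 594 to 1511 for Agpat2.

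The ratio of Agpat3 to Agpat2, like all 4 paralog ratios tested, was taken within each library as a difference of log2(normalized count + 1). Library scaling thus enters only through the added 1. The log2 ratios were 1.80, 1.82 and 1.94 in BODIPY-low and 2.17, 2.27 and 2.00 in BODIPY-high replicates 1, 2 and 3. All BODIPY-high ratios lay above all BODIPY-low ratios, by 0.29 between the group means (1.85 ± 0.08 and 2.15 ± 0.13, SD, n = 3 each). The exact 2-sided permutation test gave p = 0.1, the smallest p that 3 against 3 libraries allow, and 0.4 when adjusted over the 4 paralog ratios tested. Of the summed level of the 5 measured Agpat genes of this reaction, in normalized counts per kb, Agpat3 made up 36.8% ± 1.5 in BODIPY-low and 41.2% ± 2.2 in BODIPY-high libraries (SD, n = 3 each). Agpat2 made up 36.2% ± 0.5 and 33.1% ± 1.3. These shares restate the same ratio and are no further evidence. Their size also depends on the length used. With the longest coding transcript as the length, Agpat2 stood at 656 and Agpat3 at 655 per kb (means of 6 libraries).

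**Figure D2:**
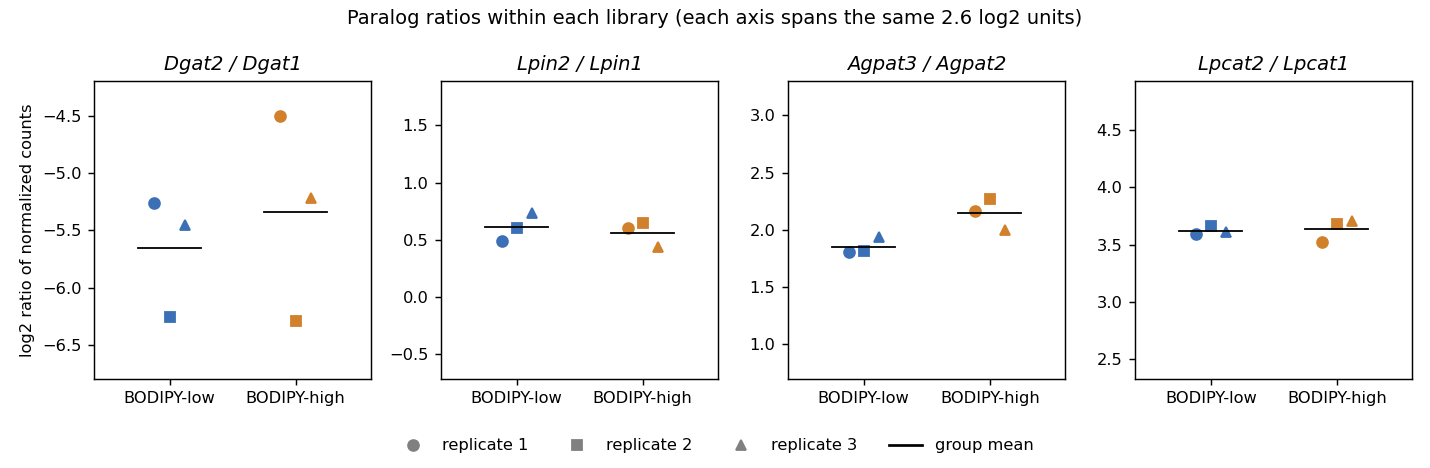
Log2 ratio of normalized counts of 4 paralog pairs in each library (vertical axes, each spanning the same width), with BODIPY-low in blue, BODIPY-high in orange, the marker shape giving the replicate number and lines at the group means. The Agpat3 to Agpat2 ratio is 1.80 to 1.94 in BODIPY-low and 2.00 to 2.27 in BODIPY-high libraries, while the other 3 pairs overlap.

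The lipins, which make diacylglycerol from phosphatidate, did not pass the test. Lpin1, whose product also acts as a transcriptional coactivator, had 3419, 3092 and 2925 normalized counts in BODIPY-low and 3553, 3236 and 3536 in BODIPY-high replicates 1, 2 and 3 (mm9 chromosome 12, 16542475 to 16596576, minus strand). BODIPY-low replicate 1 lay within the BODIPY-high range, and the log2 change was 0.13 ± 0.08 with a limma adjusted p of 0.356, and between 0.081 and 0.19 with 1 library left out. Lpin2, mutated in an inherited inflammatory bone disease (mm9 chromosome 17, 71531900 to 71599157, plus strand), had 4816, 4705 and 4866 normalized counts in BODIPY-low and 5410, 5069 and 4783 in BODIPY-high libraries. BODIPY-high replicate 1 was the highest library and BODIPY-high replicate 3 lay within the BODIPY-low range. The log2 change was 0.08 ± 0.07 (limma adjusted p 0.525), and the 95% interval ran from 0.959-fold to 1.17-fold. Leaving out 1 library gave 0.038 to 0.13. The log2 ratio of Lpin2 to Lpin1 was 0.61 ± 0.12 in BODIPY-low and 0.56 ± 0.11 in BODIPY-high libraries (SD, n = 3 each, exact permutation p = 0.7).

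The acyltransferases of the last step of triglyceride synthesis were unequal in level. Dgat1, the enzyme of the endoplasmic reticulum (mm9 chromosome 15, 76332445 to 76342381, minus strand), had 1278, 1233 and 1179 normalized counts in BODIPY-low and 965, 1218 and 1154 in BODIPY-high replicates 1, 2 and 3. BODIPY-high replicate 1 was the lowest library and BODIPY-high replicate 2 lay within the BODIPY-low range. The log2 change was -0.15 ± 0.10 with a limma adjusted p of 0.405, and -0.05 without BODIPY-high replicate 1. Its 95% interval ran from 0.781-fold to 1.04-fold.

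Dgat2, which can also act on the surface of growing droplets (mm9 chromosome 7, 106302173 to 106331223, minus strand), was close to the lower limit of the test. It had 46, 14 and 28 reads in BODIPY-low and 56, 13 and 18 reads in BODIPY-high replicates 1, 2 and 3. In normalized counts these were 32.3, 15.2 and 26.0, and 41.7, 14.6 and 30.1. Replicate 2 was the lowest of both groups and replicate 1 the highest. The exact Poisson 95% intervals, which cover counting error only, ran from 8.29 to 25.4 in BODIPY-low replicate 2, from 31.5 to 54.2 in BODIPY-high replicate 1 and from 7.75 to 24.9 in BODIPY-high replicate 2. The last 2 belong to 1 group and do not overlap. Counting error would give a coefficient of variation of 13.4% to 27.7%, while the values varied by 35.4% in BODIPY-low and 47.3% in BODIPY-high libraries. The log2 change was 0.17 ± 0.47 with a limma adjusted p of 0.887, and its 95% interval ran from 0.563-fold to 2.25-fold. A rise could not be told from a fall. Its sign turned without BODIPY-low replicate 2 (-0.13) and without BODIPY-high replicate 1 (-0.15).

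Per kb of exon, Dgat1 stood at 383 normalized counts and Dgat2 at 11.8 (means of 6 libraries), and Dgat1 made up 94.5% to 98.4% of their sum. The log2 ratio of Dgat2 to Dgat1 was -5.66 ± 0.53 in BODIPY-low and -5.34 ± 0.90 in BODIPY-high libraries (SD, n = 3 each, exact permutation p = 0.6).

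Soat1, which esterifies cholesterol (mm9 chromosome 1, 158358239 to 158404459, minus strand), had the second smallest p of the set. It had 3420, 2766 and 2810 normalized counts in BODIPY-low replicates 1, 2 and 3, and 3924, 3203 and 3388 in BODIPY-high replicates 1, 2 and 3. BODIPY-low replicate 1 lay above BODIPY-high replicates 2 and 3, so the groups overlapped through that library. Same-numbered differences were all upward, but the labels do not say whether numbers pair the samples. With the replicate number as a block, the limma adjusted p of Soat1 was 0.0258, where 9.38% of all tested genes were called. The means were 2999 ± 366 and 3505 ± 374 (SD, n = 3 each). The log2 change was 0.23 ± 0.09 with a limma adjusted p of 0.196. The 95% interval ran from 1.02-fold to 1.34-fold. Without BODIPY-low replicate 1 the log2 change was 0.32 with a limma adjusted p of 0.0641, and without BODIPY-high replicate 1 it was 0.14 with 0.463. Its paralog Soat2, mainly an enzyme of gut and liver, had 25.3, 47.6 and 24.2 normalized counts in BODIPY-low and 16.4, 14.6 and 21.7 in BODIPY-high libraries. These rested on few reads, 36, 44 and 26 in BODIPY-low and 22, 13 and 13 in BODIPY-high libraries. Soat2 values were lower in all 3 BODIPY-high libraries, as held for 1356 of 11624 tested genes. The log2 change was -0.80 ± 0.43, with a limma adjusted p of 0.326. Per kb, Soat1 made up 96.4% to 99.1% of the sum of both genes.

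The lysophosphatidylcholine acyltransferases held the most abundant transcript of the set. LPCAT2, which in inflammatory cells also makes platelet-activating factor, and LPCAT1 are both known from droplet surfaces. Lpcat2 (mm9 chromosome 8, 95379249 to 95443178, plus strand) had 61870, 54746 and 51355 normalized counts in BODIPY-low and 60371, 57690 and 59691 in BODIPY-high replicates 1, 2 and 3. The highest library was BODIPY-low replicate 1 and the BODIPY-high libraries lay inside the BODIPY-low range. The means were 55990 ± 5366 and 59251 ± 1394 (SD, n = 3 each), with a log2 change of 0.09 ± 0.08 and a limma adjusted p of 0.590. Counting error at this depth would give a coefficient of variation of 0.337% to 0.529%, while the values varied by 9.58% in BODIPY-low and 2.35% in BODIPY-high libraries. The 95% interval of the change ran from 0.943-fold to 1.19-fold. Without BODIPY-low replicate 1 the change was 0.16, and it was 0.026 without BODIPY-low replicate 3.

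Lpcat1 (mm9 chromosome 13, 73604645 to 73653870, plus strand) had 5138, 4315 and 4202 normalized counts in BODIPY-low and 5239, 4509 and 4568 in BODIPY-high libraries. Replicate 1 was the highest library of both groups and the groups overlapped. The log2 change was 0.07 ± 0.09 with a limma adjusted p of 0.700, and it was 0.16 without BODIPY-low replicate 1 and 0.0015 without BODIPY-high replicate 1. The log2 ratio of Lpcat2 to Lpcat1 was 3.62 ± 0.04 in BODIPY-low and 3.64 ± 0.10 in BODIPY-high libraries (SD, n = 3 each), a difference of 0.02 with an exact permutation p of 0.8.

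**Figure D3:**
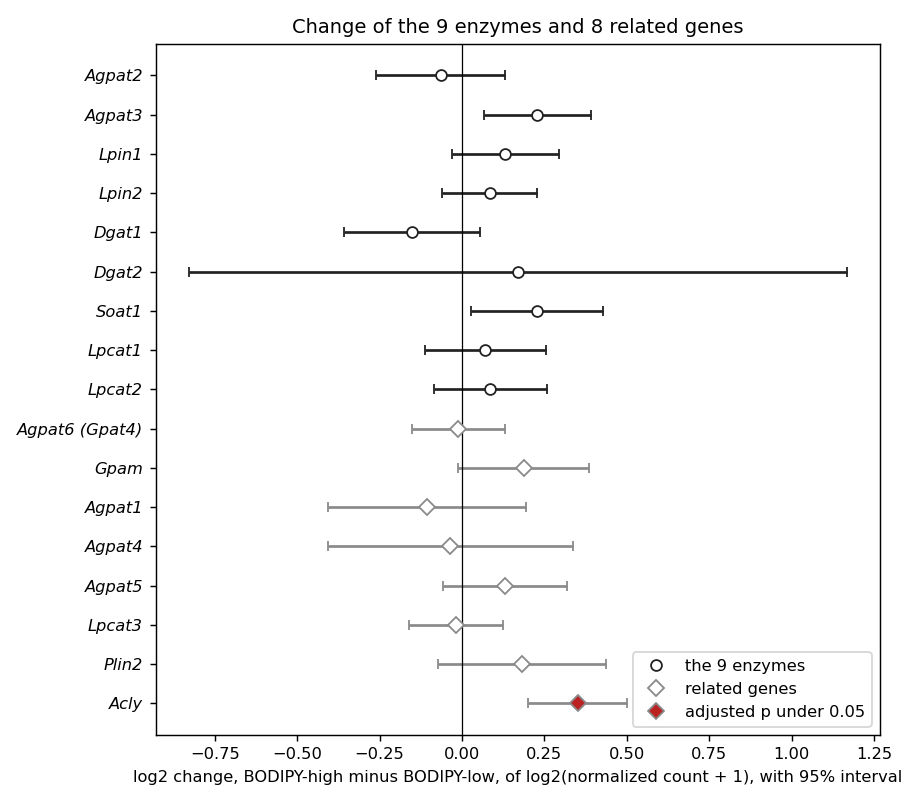
Log2 change (horizontal axis, BODIPY-high minus BODIPY-low) with its 95% interval for the 9 enzymes (black circles) and 8 related genes (grey diamonds), filled red where the limma adjusted p was under 0.05. Acly is the gene that passed, at 0.35, and the interval of Dgat2, from -0.83 to 1.17, is the widest shown.

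Replicate 1 was the highest library of both groups for 5 of the 9 enzymes, namely Dgat2, Soat1, Lpin1, Lpcat1 and Lpcat2. The share of all tested genes with this order was not counted. The libraries numbered 1 were also the deepest of their groups, with 38489448 and 36894483 reads. The part of depth or of a shared pool in this was not tested.

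In level, the extremes of the set stood further apart than the middle. Per kb of exon, Lpcat2 had 17063 normalized counts on average (15207 to 18321 over 6 libraries), above 99.5% of the tested genes with a known length. That was 15.1 times the level of Lpcat1, the next in order at 1129 (1017 to 1268), and Dgat2 was last at 11.8 (6.47 to 18.5), above 9.69% of tested genes. Between them, Soat1, Lpin1, Agpat3, Agpat2, Lpin2 and Dgat1 followed in this order from 680 to 383, and each overlapped its neighbour in range. Within libraries, Soat1 was the third and Lpin1 the fourth in 6 of 6, while Agpat3, Agpat2, Lpin2 and Dgat1 changed places with a neighbour in at least 1 library. With the longest coding transcript as the length, chosen after seeing the data, the first, second and last places held, while Lpin2 moved from 404 to 876 per kb and from 7 to 3 in rank. Lpin1 then stood at 585 and moved from 4 to 8 in rank, below Lpin2, so the order of the lipins depends on the length used.

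**Figure D4:**
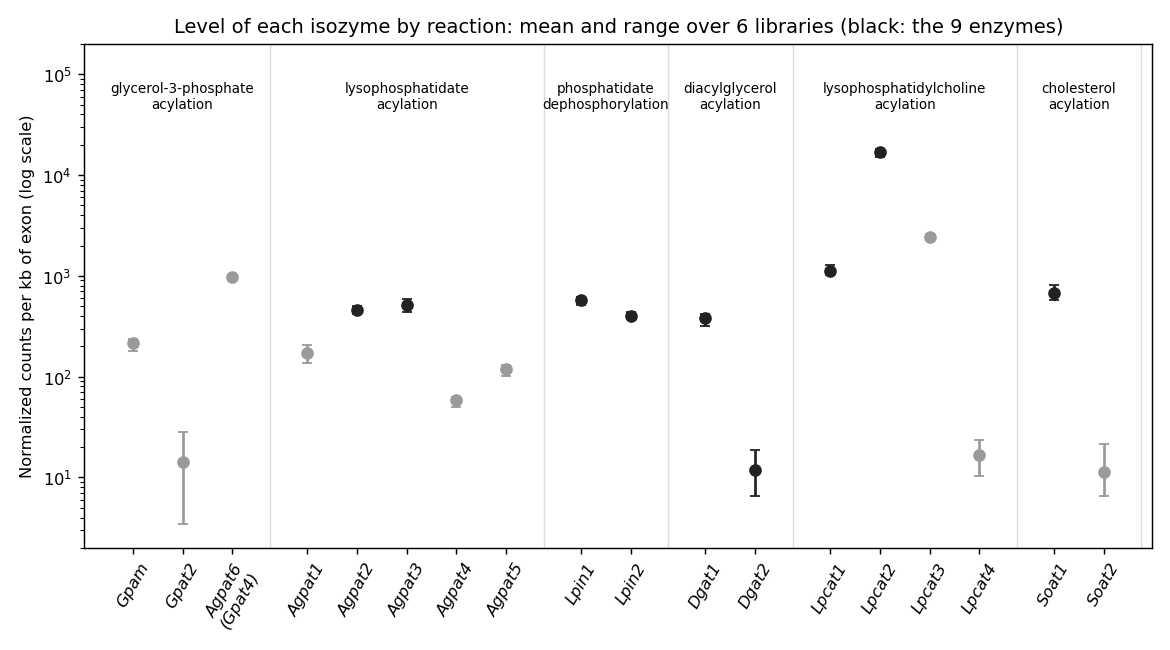
Mean level (points) and range over the 6 libraries (bars) in normalized counts per kb of exon, on a log axis, for the genes of each reaction, with the 9 enzymes in black and related genes in grey. Lpcat2 stands highest at 17063 and Dgat2 at 11.8, and genes listed at 0 in a library are not drawn.

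The other genes of the pathway were counted in lists by reaction. Over all tested genes, 3.36% passed in limma and 19.8% had an unadjusted p under 0.05. Of 11 other acyltransferases and phosphatases on the way to triglyceride, 6 were tested and 0 passed in limma, with a median log2 change of -0.02 and 0 at an unadjusted p under 0.05. For the first acylation, Gpat4 (listed as Agpat6) led with 970 normalized counts per kb and a log2 change of -0.01 ± 0.07. The mitochondrial Gpam had 216 per kb and a log2 change of 0.19 ± 0.09 (limma adjusted p 0.283). Gpat3 (listed as Agpat9) had values between 0 and 5.60 normalized counts and was not tested. Agpat1, Agpat4 and Agpat5 had log2 changes of -0.11 ± 0.14, -0.04 ± 0.17 and 0.13 ± 0.09. Lpin3 was looked for and not found under this symbol in the count table.

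Of 8 other lysophospholipid acyltransferases, 7 were tested and 0 passed in limma, with a median of -0.04 and 0 at an unadjusted p under 0.05. The shares over all tested genes were again 3.36% and 19.8%. Lpcat3, an enzyme that favours polyunsaturated chains, stood between Lpcat2 and Lpcat1 at 2425 normalized counts per kb, with a log2 change of -0.02 ± 0.07. Lpcat4 stood at 16.6 per kb and had a log2 change of -0.38 ± 0.36 (limma adjusted p 0.605). Of the summed level of the 4 Lpcat genes per kb, Lpcat2 made up 81.7% to 83.3% in the 6 libraries.

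Fatty acid supply held the gene that passed. Acly, which encodes ATP citrate lyase, the source of cytosolic acetyl-CoA for fatty acid and cholesterol synthesis, had 11217, 10567 and 9674 normalized counts in BODIPY-low and 13691, 12809 and 13556 in BODIPY-high replicates 1, 2 and 3. All BODIPY-high libraries lay above all BODIPY-low libraries, as held for 12.7% of all tested genes. Acly rose by 0.35 ± 0.07 on the log2 scale, from 10486 ± 775 to 13352 ± 475 (SD, n = 3 each), with a limma adjusted p of 0.0181. The call was lost without BODIPY-low replicate 2 (adjusted p 0.0801), BODIPY-low replicate 3 (0.0872) or BODIPY-high replicate 3 (0.0727), and in limma without a trend (0.186). It was the 1 of 11 tested genes of the list of fatty acid synthesis, elongation and desaturation that passed, where 3.36% of all tested genes did, and the list's median was -0.03. At an unadjusted p under 0.05 the list held 4 of 11, against 19.8% of all tested genes. Besides Acly these were Scd2, a stearoyl-CoA desaturase, with a log2 change of 0.30 ± 0.08 (limma adjusted p 0.0544), Elovl1, an elongase of very long chains, with -0.19 ± 0.07 (0.117), and Mlxipl, which encodes the transcription factor ChREBP, with -0.24 ± 0.10 (0.178). These 3 were named after their values were seen.

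For the lists that follow, the shares over all tested genes were again 3.36% past the threshold and 19.8% at an unadjusted p under 0.05. Of 17 tested genes of the head group and CDP-diacylglycerol branch of phospholipid synthesis, 0 passed in limma, 2 had an unadjusted p under 0.05 and the median was 0.09. Of 12 tested phospholipases and diacylglycerol kinases, 0 passed, 2 had an unadjusted p under 0.05 and the median was -0.01. Of 4 tested genes of cholesterol ester turnover, 0 passed, 0 had an unadjusted p under 0.05 and the median was 0.00. Of 9 tested genes of droplet assembly, 0 passed, 1 had an unadjusted p under 0.05 and the median was 0.09. The 1 was Plin3, a paralog of Plin2, with a log2 change of 0.50 ± 0.14 (limma adjusted p 0.0678). Plin3 was named after its values were seen. Plin2, a droplet coat gene, had 1426, 1283 and 968 normalized counts in BODIPY-low and 1398, 1458 and 1271 in BODIPY-high libraries. Its groups overlapped (log2 change 0.18 ± 0.12, limma adjusted p 0.417), and the change was 0.30 without BODIPY-low replicate 1 and 0.022 without BODIPY-low replicate 3.

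Across the 6 libraries, the pattern of Agpat3, the enzyme with the smallest p, was compared with those of the 10108 tested genes outside the lists whose mean reached 50 normalized counts. Nhp2l1 and Pi4ka were among the 3 most like it. Pearson's r of the log2 values was 0.992 and 0.990 over 6 libraries, which share the split into groups. Both were picked as among the highest r of 10108 genes, so they are no test of a link. The log2 changes of Nhp2l1 and Pi4ka were 0.09 and 0.30, and neither passed in limma (adjusted p 0.625 and 0.106).

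**Figure D5:**
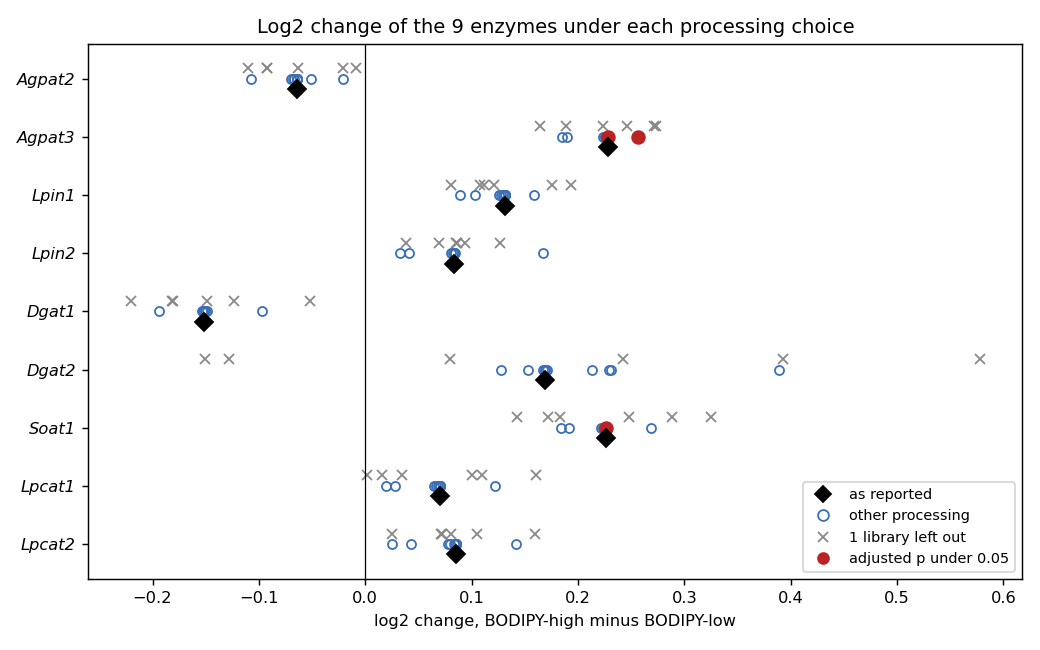
Log2 change (horizontal axis, BODIPY-high minus BODIPY-low) of each enzyme as reported (black diamonds), under other processing (blue circles) and with 1 library left out (grey crosses), in red where the adjusted p was under 0.05. Signs held for 8 of the enzymes, Dgat2 crossed 0, and the red points belong to Agpat3 and Soat1.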

How the data were processed

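The values are a normalized signal: read counts per gene, each divided by a size factor of its library, as the authors deposited them. Per the submitters' processing notes, FastQC 0.11.4 served for quality control and STAR 2.5.1b for mapping to mm9, and the series' design text adds that STAR counted the reads. The annotation and the strand setting were not given in the sources used here. All values (100%) were whole multiples of a fixed step in each library within 0.01 reads, which gave the reads back. Size factors lay between 0.599 and 1.43.

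A gene was tested when at least 3 libraries reached a value of 10, which left 11624 genes. The test was limma 3.58.1 (R 4.3.3, mean-variance trend) on log2(value + 1), with Benjamini-Hochberg adjustment over all of these genes and a threshold of 0.05. On the recovered reads, edgeR 4.0.16 (quasi-likelihood) and DESeq2 1.42.0 were alternatives. Coordinates and exon lengths came from GENCODE vM1 (mm9). The fit was tested on simulated data. The members and lists were chosen with earlier results of these data known. Named by rule were the 9 enzymes, their paralogs, Plin2 and listed genes past the threshold. Scd2, Elovl1, Mlxipl and Plin3 were added after their values were seen. Pools may share mice, and p-values then describe the spread of these samples alone, possibly a technical spread. Reads carry no molecular identifiers. A microglial marker and a gene similar in pattern to Agpat3 are not reported here.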

Additional observations from a re-analysis of the deposited data

How the results depend on the processing

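Over 126 refits of single enzymes that can move the estimate, 124 kept the sign. The log2 change of Dgat2 ran from -0.15 to 0.58 with 1 library left out, and Dgat2 was not tested with a minimum of 50. Of 18 settings, 16 called 0 of the 9 enzymes, all 6 with 1 library left out among them. The length correction called 1 (Agpat3), against 5.60% of all genes. The replicate number as a block called 2 (Soat1, adjusted p 0.0258, and Agpat3, 0.0396), against 9.38%. Same-numbered differences were all upward for 4 of the 9 enzymes, Soat1, Lpin1, Agpat3 and Lpcat1. The share of all tested genes with such differences was not counted. Whether same-numbered libraries are paired is unknown: the correlation of their deviations was 0.161, 0.132 and 0.0641, and each library correlated best with its own number. These deviations were taken from the mean of the 3 libraries of each group. The correlations therefore constrain each other and cannot decide the pairing. Genes called over the table numbered 390, and 252 with quantile normalization, 15 without a trend, 729 with DESeq2, 651 with the length correction, 1090 with the block and 43 to 407 with 1 library left out. With 1 library left out, the group difference in log2 ratio ran from -0.098 to 0.80 for Dgat2 to Dgat1, -0.11 to 0.015 for Lpin2 to Lpin1, 0.23 to 0.36 for Agpat3 to Agpat2 and -0.020 to 0.071 for Lpcat2 to Lpcat1. With same-numbered libraries paired, the exact sign-flip p was 0.25 for Agpat3 to Agpat2, the smallest that 3 pairs allow. Of the related genes, signs turned after the length correction for Agpat6 (0.042), Agpat4 (0.014) and Lpcat3 (0.038) and with quantile normalization for Agpat4 (0.061). The median over all tested genes also moved, from -0.0056 as reported to 0.042 after the length correction and 0.011 with quantile normalization. With 1 library left out, the log2 change ran from -0.030 to 0.028 for Agpat6, -0.23 to 0.020 for Agpat1, -0.097 to 0.077 for Agpat4 and -0.055 to 0.035 for Lpcat3. The causes were not tested. Dgat2 had 13 to 56 reads per library, and its spread within groups was wider than counting error.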
